A study of Mus musculus with 22 samples.

Results

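The effect of adding 2i to serum and LIF was measured in mouse embryonic stem cells (ESCs) that lack Ezh2. The comparison rests on 5 of the 22 RNA-seq libraries of the study, chosen by their labels alone: 2 libraries of knockout line 10 cultured with LIF and 2i (KO10_S2iL) and 3 libraries of the same line cultured with LIF (KO10_SL), both on serum according to the design text. Both groups carry the genotype spelled "Eeh2-null" in the labels, made in E14, an established mouse ESC line, and the medium is the only difference that the labels give between them. Line 10 is a single knockout line, so that what holds for it was not checked in a second one here. The study asked how Ezh2 and its complex keep ESCs from taking the primitive endoderm (PrE) fate, and its other libraries hold PrE stem cells, rescued knockout cells and wild-type ESCs. Wild-type E14 cells of the set labelled TG2A.NG.PB served for a second medium comparison, with 2 libraries cultured with LIF and 2i (TG2A_S2iL) and 2 libraries cultured with LIF (TG2A_ESC). A further 3 libraries of wild-type E14 cells cultured with LIF (E14_ESC) showed how far wild-type sets differed without a labelled difference in medium.

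2i is a pair of small molecules, a MEK inhibitor that blocks the FGF to ERK signal and a GSK3 inhibitor that stabilises beta-catenin and thereby mimics Wnt. Together with LIF, which acts through STAT3, it holds mouse ESCs in the naive state of the early epiblast, and in the blastocyst the same block of FGF signalling turns inner cell mass cells away from PrE, the layer that forms the yolk sac endoderm. EZH2 is the main methyltransferase of Polycomb repressive complex 2 (PRC2), which places the repressive mark H3K27me3 at the genes of developmental regulators. ESCs tolerate the loss of this complex but keep its targets less securely silent.

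Ezh2 was nearly absent from every knockout library. Its transcript had 6 and 0 counts in KO10_S2iL, against 2, 1 and 1 counts in KO10_SL, whereas wild-type cells held 222 and 214 CPM (counts scaled to one library total) in TG2A_S2iL and 194 and 199.7 CPM in TG2A_ESC. The ESC factors Pou5f1, Nanog and Esrrb were abundant in all 5 libraries, with lowest values of 689.7, 388 and 664 CPM. Totals ran from 17164517 to 17582643 counts in KO10_S2iL and from 22805656 to 24325321 in KO10_SL, and from 13586043 to 26280949 over all 22 libraries. Replicates correlated with r = 0.996 in KO10_S2iL and r = 0.995 to 0.997 in KO10_SL on log2 CPM across genes, and KO10_SL replicate 1 stood further from replicates 2 and 3 (chi-square per degree of freedom 10.2 and 9.66) than those did from each other (2.14). The design text speaks of duplicates, whereas 3 libraries carry the KO10_SL label, and the calls without each of them are given below. The 2 TG2A_ESC libraries were less alike (r = 0.988). The labels do not say whether replicates are separate cultures, so the p-values below measure only the spread between libraries of a group. That spread was estimated over all 22 libraries and not from the compared ones alone. In such bulk samples, fewer cells of a type and less RNA per cell cannot be told apart. CPM values are not divided by gene length, so levels are compared between libraries and never between genes.

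With 2i, the knockout cells had less RNA of 12 of 17 PrE surface and matrix genes, 6 of 10 PrE transcription factors, 7 of 10 core pluripotency genes, 7 of 12 formative genes and 6 of 14 ERK response genes. They had more RNA of 5 of 11 LIF pathway genes, 8 of 18 lysosomal genes and 6 of 19 lipid synthesis genes. Some members went the other way: 2 PrE surface and matrix genes and 2 ERK response genes rose. Likewise, 1 LIF pathway, 1 lysosomal and 2 lipid synthesis genes fell. Of 17547 genes tested, 6482 (36.9%) were called at an adjusted p below 0.05 by edgeR's quasi-likelihood test, 3447 higher (19.6%) and 3035 lower (17.3%) in KO10_S2iL. At least 2-fold changes made up 1429 of the genes called higher and 869 of those called lower, and the median log2 fold change of all tested genes was 0.06. A list with shares near 19.6% higher and 17.3% lower is thus at the background. Without KO10_S2iL replicate 1 there were 4007 calls and without replicate 2 there were 3847, and in both cases the lone library is assumed to vary like those of the other groups. Without KO10_SL replicates 1, 2 and 3 in turn there were 5572, 5144 and 5150 calls. For each group of genes below, bracketed values are log2 fold changes ± SE. Calls that ended without 1 library are named, most of them with the highest edgeR adjusted p that leaving out a library gave.

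Several of the genes that FGF and ERK signalling keep on fell steeply with 2i. Spry4, a feedback inhibitor of receptor tyrosine kinase signalling, had 8.70 and 10.5 CPM in KO10_S2iL, against 125, 127 and 121 CPM in KO10_SL. This was among the 8 largest falls of called genes with at least 10 CPM in the higher group, predicted gene models left aside (log2 fold change -3.69 ± 0.48 SE, edgeR adjusted p = 2.32e-05), and every 2i library lay far below every library without 2i. Etv4, an ETS factor of the PEA3 family that transmits FGF signals, had 20.9 and 20.9 CPM in KO10_S2iL, against 131, 140.0 and 136 CPM in KO10_SL. It was lower in both 2i libraries by a similar margin (log2 fold change -2.70 ± 0.43 SE, edgeR adjusted p = 1.60e-04). Myc, the growth-promoting factor that ERK and LIF signals both feed, had 4.58 and 3.52 CPM in KO10_S2iL, against 39.3, 33.1 and 32.5 CPM in KO10_SL. Myc also fell (log2 fold change -3.11 ± 0.21 SE, edgeR adjusted p = 1.72e-07). Dusp4, a nuclear phosphatase that removes the activating phosphates of ERK, had 5.79 and 4.34 CPM in KO10_S2iL, against 33.6, 28.6 and 26.9 CPM in KO10_SL. For Dusp4 the log2 fold change was -2.55 ± 0.41 (SE, edgeR adjusted p = 1.63e-04).

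The other ERK genes were less uniform. Of 14 tested immediate early and ETS genes, 6 fell and 2 rose, with a median log2 fold change of -0.72 beside 0.06 for all genes. Those that fell were Etv4, Myc, Phlda1 (-1.61 ± 0.25), Ier2 (-0.90 ± 0.14), Egr1 (-1.80 ± 0.63) and Junb (-0.54 ± 0.13), and those that rose were the AP-1 members Jun (1.06 ± 0.39) and Fos (0.88 ± 0.26). Of 12 tested feedback inhibitors, 3 fell, namely Spry4, Dusp4 and Dusp6 (log2 fold change -1.72 ± 0.49 SE, edgeR adjusted p = 0.0116), the cytoplasmic ERK phosphatase. The 2 that rose were Dusp1 and Il17rd, a membrane inhibitor of FGF signalling (0.66 ± 0.16). Beside 19.6% higher and 17.3% lower of all genes, these counts of feedback inhibitors are near the background. Dusp1, a stress-inducible phosphatase, had 77.3 and 78.4 CPM in KO10_S2iL, against 26.3, 26.8 and 27.0 CPM in KO10_SL. Dusp1 had a log2 fold change of 1.54 ± 0.27 (SE, edgeR adjusted p = 3.05e-04). Etv5 (log2 fold change -0.22 ± 0.26 SE, edgeR adjusted p = 0.538) and Spry2 (log2 fold change -0.31 ± 0.15 SE, edgeR adjusted p = 0.106), both also used as readouts of FGF signalling, were not called. Phlda1 shares 33% of its exon bases with a gene on the opposite strand, and since the strand setting of the counting is not given in the sources used here, reads of the pair cannot be told apart. Calls ended for Egr1 (adjusted p 0.19) and Jun (adjusted p 0.17) without either KO10_S2iL library or any 1 KO10_SL library, Fos (adjusted p 0.0895) without either KO10_S2iL library or KO10_SL replicate 2, Junb (adjusted p 0.0712) without KO10_S2iL replicate 2 and Dusp6 (adjusted p 0.086) without either KO10_S2iL library.

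Among the ligands, Fgf17 was close to absent from the knockout with 2i. It had 2 and 3 counts in KO10_S2iL, against 164, 191 and 193 counts in KO10_SL. It was called lower (log2 fold change -5.81 ± 0.56 SE, edgeR adjusted p = 1.91e-06), a fitted fold that depends on the few counts with 2i and is not a bound. Fgf15, a ligand of the endocrine FGF class, fell as well (log2 fold change -1.65 ± 0.34 SE, edgeR adjusted p = 0.0013). Fgf4, the ligand by which epiblast cells signal to PrE, held 173 and 188 CPM in KO10_S2iL, against 155, 156 and 159 CPM in KO10_SL. Fgf4 was not called (log2 fold change 0.20 ± 0.12 SE, edgeR adjusted p = 0.197). Its receptors Fgfr1 (0.47 ± 0.61) and Fgfr2 (-0.77 ± 0.42) were not called either, so that 2 of 9 tested ligands and receptors fell and none rose. Beside 17.3% lower of all genes, the count of falls is near the background. Fgf15 shares 24.9% of its exon bases with a gene on the opposite strand.

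**Figure D1:**
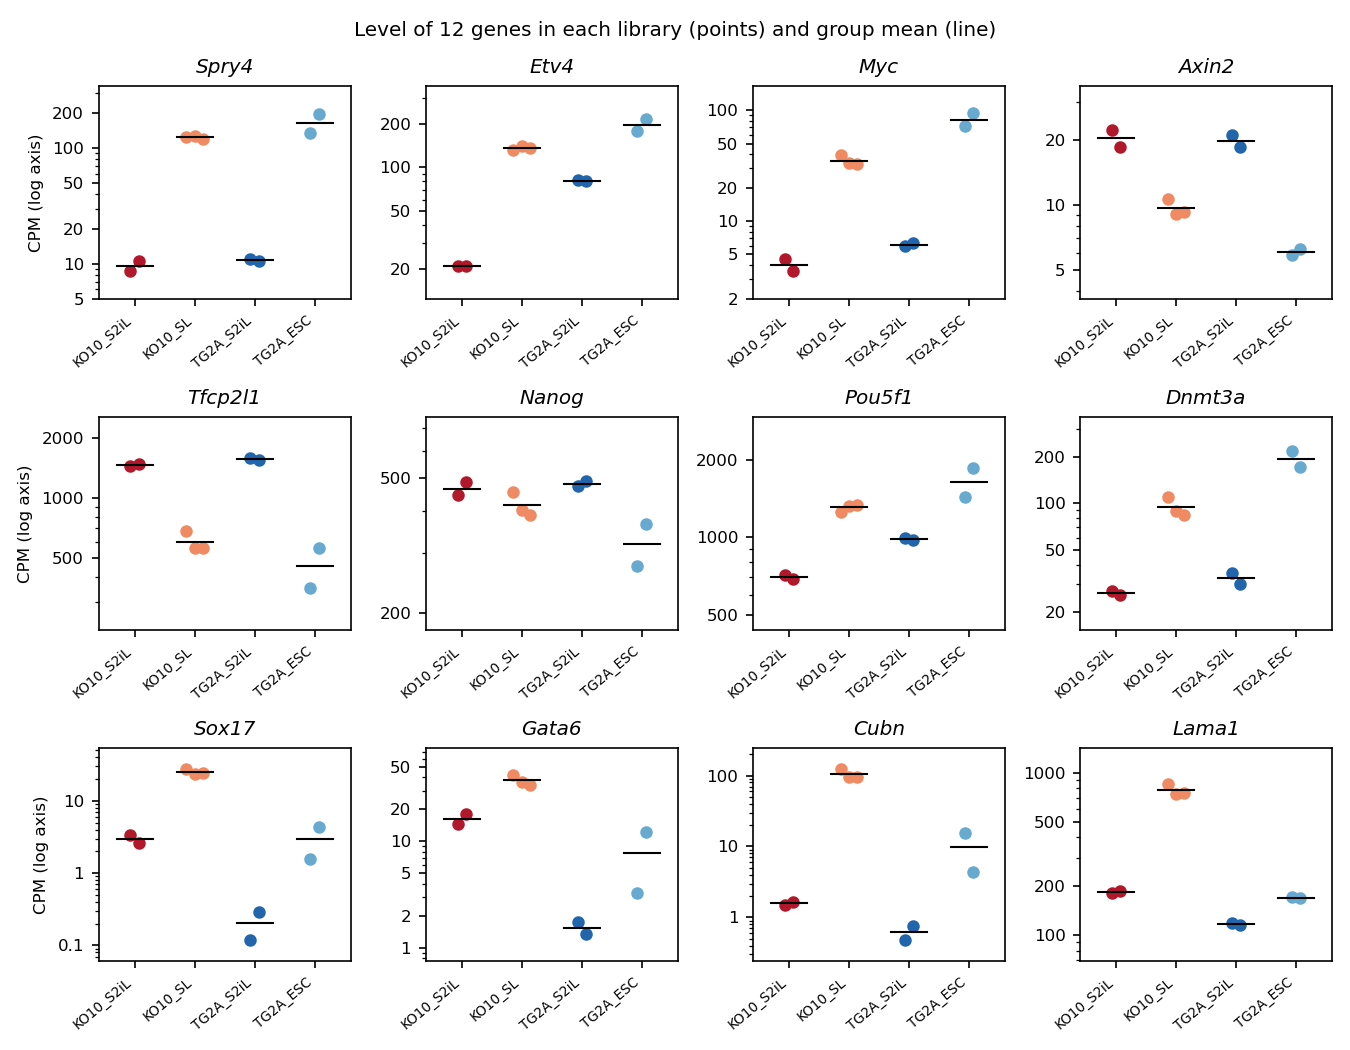
CPM (log axis) of 12 genes in each library of KO10_S2iL, KO10_SL, TG2A_S2iL and TG2A_ESC, with 1 point per library and a line at the group mean. Spry4 lies at 8.70 and 10.5 CPM in KO10_S2iL and at 125, 127 and 121 CPM in KO10_SL, while the points of Nanog overlap between these groups.

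Genes that report beta-catenin activity moved in both directions. Axin2, the scaffold that targets beta-catenin for destruction and a standard Wnt target, had 22.1 and 18.6 CPM in KO10_S2iL, against 10.6, 9.03 and 9.28 CPM in KO10_SL. It rose (log2 fold change 1.08 ± 0.25 SE, edgeR adjusted p = 0.00302). Its groups did not overlap. Sp5, a zinc finger factor induced directly by Wnt, had only 1.16 and 1.65 CPM in KO10_S2iL, against 0.0813, 0.286 and 0.424 CPM in KO10_SL (log2 fold change 2.39 ± 0.68 SE, edgeR adjusted p = 0.0116). Tnfrsf19 (1.13 ± 0.31) and the secreted antagonist Wif1 (1.58 ± 0.41) rose too, so that 4 of 15 tested targets and feedback genes were higher. The 2 that fell were Dkk1 and Lef1, a nuclear partner of beta-catenin (-1.82 ± 0.61). Dkk1, a secreted Wnt inhibitor that PrE also makes, had 3.12 and 1.55 CPM in KO10_S2iL, against 16.7, 10.5 and 10.2 CPM in KO10_SL. For Dkk1 the log2 fold change was -2.41 ± 0.50 (SE, edgeR adjusted p = 0.00134). Cdx1, an intestinal homeobox gene that Wnt induces, held 32.1 and 29.6 CPM in KO10_S2iL, against 10.8, 9.44 and 8.73 CPM in KO10_SL. Cdx1 missed the threshold (log2 fold change 1.68 ± 0.73 SE, edgeR adjusted p = 0.0888). T, the primitive streak gene, was low in all 5 libraries (-0.85 ± 0.68). The median of the list was 0.39. Beside 19.6% higher and 17.3% lower of all genes, its counts are near the background. Calls ended for Sp5 (adjusted p 0.0924) and Tnfrsf19 (adjusted p 0.0847) without KO10_S2iL replicate 2, Wif1 (adjusted p 0.111) without KO10_S2iL replicate 1 and Lef1 (adjusted p 0.152) without either KO10_S2iL library or KO10_SL replicate 2 or 3.

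The 250 bases before the annotated start of Sp5 and of Axin2 are shown because both genes rose and are used as Wnt readouts, while only the Sp5 window holds core letters that TCF and LEF factors bind. Capitals mark CTTTGA, searched on both strands (TCAAAG on the other). The windows are from RefSeq on GRCm38.p6 and lie on the plus strand at chr2:70474673-70474922 and chr11:108920099-108920348.

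Sp5: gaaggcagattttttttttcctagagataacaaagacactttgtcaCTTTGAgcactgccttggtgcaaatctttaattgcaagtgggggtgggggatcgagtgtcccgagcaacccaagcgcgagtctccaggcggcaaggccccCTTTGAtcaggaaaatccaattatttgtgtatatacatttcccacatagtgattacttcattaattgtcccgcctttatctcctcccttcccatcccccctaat

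Axin2: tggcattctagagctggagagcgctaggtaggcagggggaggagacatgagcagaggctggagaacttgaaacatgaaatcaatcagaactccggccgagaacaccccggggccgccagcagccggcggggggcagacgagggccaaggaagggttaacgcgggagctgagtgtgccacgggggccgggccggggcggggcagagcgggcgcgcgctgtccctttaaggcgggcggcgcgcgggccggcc

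In the Sp5 window the letters begin 204 and 104 bases before the start, both on the plus strand, and in the Axin2 window they do not occur. All 6 called Wnt targets have such a window in RefSeq (Lef1 and Tnfrsf19 have several), and 4 of them, Sp5, Lef1, Tnfrsf19 and Dkk1, hold the letters in at least 1. Of all 32851 RefSeq windows of that length, 13.8% hold them. Those 4 genes did not share a direction, since Sp5 and Tnfrsf19 rose and Lef1 and Dkk1 fell. The ETS core CCGGAA, searched on both strands and present in 12% of windows, occurred in none of the windows of the 6 called ERK genes that have one. A match of letters is a description of the sequence and not of binding.

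In the rest of the Wnt pathway, 5 of 18 tested ligands, receptors and effectors rose and 2 fell, beside 19.6% and 17.3% of all genes. The co-receptors Lrp5 (92.4 and 89.2 CPM in KO10_S2iL, against 48.7, 45.9 and 47.0 CPM in KO10_SL, log2 fold change 0.94 ± 0.15 SE, edgeR adjusted p = 1.12e-04) and Lrp6 (0.60 ± 0.12) were higher, as were the destruction complex members Apc (log2 fold change 0.90 ± 0.12 SE, edgeR adjusted p = 3.13e-05) and Gsk3b (log2 fold change 0.75 ± 0.13 SE, edgeR adjusted p = 2.71e-04), the kinase that one of the 2i compounds inhibits. The ligand Wnt4 (-2.65 ± 0.76) and the receptor Fzd7 (-0.61 ± 0.19) fell, and the scarce ligand Wnt8a rose (24 and 7 counts in KO10_S2iL, against 5, 2 and 0 counts in KO10_SL, edgeR adjusted p = 0.0298). Ctnnb1, which encodes beta-catenin, had 751 and 772 CPM in KO10_S2iL, against 791, 691 and 685 CPM in KO10_SL. Ctnnb1 was not called (log2 fold change 0.077 ± 0.084 SE, edgeR adjusted p = 0.513), and neither was Tcf7l1, the repressor that GSK3 inhibition relieves in ESCs (log2 fold change -0.0055 ± 0.28 SE, edgeR adjusted p = 0.995). Calls ended for Wnt8a (adjusted p 0.347) without KO10_S2iL replicate 1 or KO10_SL replicate 2 or 3, Wnt4 (adjusted p 0.117) without either KO10_S2iL library and Fzd7 (adjusted p 0.105) without either KO10_S2iL library or KO10_SL replicate 1.

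Most naive pluripotency factors were already high without 2i and did not pass the test. Nanog had 444 and 484 CPM in KO10_S2iL, against 454, 403 and 388 CPM in KO10_SL. Nanog had a log2 fold change of 0.16 ± 0.21 (SE, edgeR adjusted p = 0.593), with overlapping groups. Esrrb held 839 and 783 CPM in KO10_S2iL, against 746, 680.2 and 664 CPM in KO10_SL. For Esrrb the log2 fold change was 0.22 ± 0.35 (SE, edgeR adjusted p = 0.666). Klf4 held 211 and 217 CPM in KO10_S2iL, against 159, 129 and 135 CPM in KO10_SL. Klf4 had a log2 fold change of 0.60 ± 0.43 (SE, edgeR adjusted p = 0.3). Prdm14, a repressor of FGF signalling and of DNA methylation genes, was also not called (0.31 ± 0.22). Tfcp2l1, a factor downstream of LIF and of GSK3 inhibition, was the exception, at 1447 and 1486 CPM in KO10_S2iL, against 677, 562 and 561 CPM in KO10_SL. For Tfcp2l1 the log2 fold change was 1.29 ± 0.40 (SE, edgeR adjusted p = 0.0191). Klf2 rose less (log2 fold change 0.56 ± 0.17 SE, edgeR adjusted p = 0.0141). Zfp42, the classical ESC marker Rex1, fell (384 and 389.9 CPM in KO10_S2iL, against 782, 712 and 708 CPM in KO10_SL, log2 fold change -0.92 ± 0.12 SE, edgeR adjusted p = 2.02e-05). In all, 2 of 14 naive factors rose and 1 fell, with a median of 0.27, and the summed level of the list was 4599 to 4699.5 CPM in KO10_S2iL, against 3573 to 4042 CPM in KO10_SL. Calls ended for Tfcp2l1 (adjusted p 0.0876) without either KO10_S2iL library or KO10_SL replicate 2 or 3 and Klf2 (adjusted p 0.129) without KO10_S2iL replicate 2.

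Most core pluripotency genes fell. Pou5f1, which encodes OCT4 and whose dose sets ESC identity, had 716 and 689.7 CPM in KO10_S2iL, against 1255, 1325 and 1335 CPM in KO10_SL. Pou5f1 had a log2 fold change of -0.89 ± 0.18 (SE, edgeR adjusted p = 0.00109). Utf1, a chromatin protein of pluripotent cells, had 83.4 and 80.7 CPM in KO10_S2iL, against 308, 361 and 348 CPM in KO10_SL. For Utf1 the log2 fold change was -2.05 ± 0.13 (SE, edgeR adjusted p = 1.05e-07). Lin28a, the inhibitor of let-7 maturation, had 39.6 and 35.9 CPM in KO10_S2iL, against 207, 164 and 168 CPM in KO10_SL. Lin28a had a log2 fold change of -2.25 ± 0.53 (SE, edgeR adjusted p = 0.00331). Sall4 (-0.88 ± 0.088), Dppa2 (-1.77 ± 0.18), Dppa4 (-1.14 ± 0.11) and the corepressor Trim28 (-0.85 ± 0.15) made up 7 of 10 tested genes lower, with a median of -0.88, and this count was the same without each of the 5 libraries in turn. Sox2 (log2 fold change 0.20 ± 0.13 SE, edgeR adjusted p = 0.248), Tdgf1 (0.29 ± 0.23) and Dppa5a (-0.26 ± 0.26) were not called. For Pou5f1, Utf1 and Lin28a every 2i library lay below every library without 2i.

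Genes of the formative and primed states and the de novo DNA methylation genes Dnmt3a and Dnmt3l were lower. Otx2, which starts the exit from the naive state, had 5.13 and 5.997 CPM in KO10_S2iL, against 20.8, 19.7 and 18.8 CPM in KO10_SL. For Otx2 the log2 fold change was -1.83 ± 0.50 (SE, edgeR adjusted p = 0.00905). Pou3f1 (-1.36 ± 0.49), Sox3 (-1.33 ± 0.39), Foxd3 (-0.86 ± 0.18), Lin28b (-0.86 ± 0.17) and Tead2 (-0.41 ± 0.14) also fell. In all, 7 of 12 tested genes were lower (median -0.86) and none was higher, with 3 called lower without either KO10_S2iL library and 5 without any 1 KO10_SL library, but Fgf5, the usual marker of this state, was scarce in all 5 libraries (log2 fold change -1.22 ± 1.03 SE, edgeR adjusted p = 0.388). Dnmt3a, a de novo DNA methyltransferase, had 27.0 and 25.4 CPM in KO10_S2iL, against 110.0, 88.8 and 84.0 CPM in KO10_SL. For Dnmt3a the log2 fold change was -1.85 ± 0.17 (SE, edgeR adjusted p = 8.78e-07). Its cofactor Dnmt3l had 179 and 178 CPM in KO10_S2iL, against 516, 449 and 428 CPM in KO10_SL. Dnmt3l had a log2 fold change of -1.38 ± 0.26 (SE, edgeR adjusted p = 6.12e-04). Dnmt3b had 152 and 149.7 CPM in KO10_S2iL, against 339, 234 and 227 CPM in KO10_SL, lower in each 2i library, and missed the threshold (log2 fold change -0.82 ± 0.32 SE, edgeR adjusted p = 0.0567). Of the maintenance genes, Dnmt1 was not called (log2 fold change 0.17 ± 0.10 SE, edgeR adjusted p = 0.208) and Uhrf1, which brings DNMT1 to replicating DNA, rose (log2 fold change 0.46 ± 0.11 SE, edgeR adjusted p = 0.00275), as did Tet3 (0.85 ± 0.13). Calls ended for Otx2 (adjusted p 0.0815) and Sox3 (adjusted p 0.157) without either KO10_S2iL library and Pou3f1 (adjusted p 0.164) and Tead2 (adjusted p 0.155) without either KO10_S2iL library or any 1 KO10_SL library.

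In the LIF pathway the shared receptor subunit and both kinases rose. Il6st, the shared gp130 subunit, had 87.4 and 90.9 CPM in KO10_S2iL, against 54.4, 45.6 and 44.8 CPM in KO10_SL. For Il6st the log2 fold change was 0.88 ± 0.12 (SE, edgeR adjusted p = 4.27e-05). Jak2 (14.8 and 16.0 CPM in KO10_S2iL, against 6.46, 8.01 and 8.10 CPM in KO10_SL, log2 fold change 1.04 ± 0.24 SE, edgeR adjusted p = 0.00257), Stat3 (log2 fold change 0.57 ± 0.10 SE, edgeR adjusted p = 4.31e-04), Jak1 (0.47 ± 0.10) and Ptpn11 (0.44 ± 0.094), the phosphatase SHP2, rose too, so that 5 of 11 tested members were higher (median 0.44), a count that held without each of the 5 libraries in turn. Lifr itself was not called (log2 fold change -0.36 ± 0.22 SE, edgeR adjusted p = 0.226), nor was the feedback target Socs3 (log2 fold change 0.69 ± 0.30 SE, edgeR adjusted p = 0.0803). The member that fell was Gbx2, a homeobox target of STAT3 (log2 fold change -1.48 ± 0.23 SE, edgeR adjusted p = 1.01e-04), which shares 43.5% of its exon bases with a gene on the opposite strand.

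BMP signalling genes changed in opposite ways. Id1, the immediate target by which BMP holds back differentiation, had 4.53 and 4.29 CPM in KO10_S2iL, against 36.8, 41.0 and 41.0 CPM in KO10_SL. Id1 had a log2 fold change of -3.16 ± 0.37 (SE, edgeR adjusted p = 9.26e-06). Id3 fell with it (-1.45 ± 0.37). The ligand Bmp4 (11.4 and 11.99 CPM in KO10_S2iL, against 29.0, 29.1 and 29.7 CPM in KO10_SL, log2 fold change -1.32 ± 0.30 SE, edgeR adjusted p = 0.00232) and the scarce Bmp2 (-2.64 ± 0.49) were lower, whereas Bmp7 had 25.7 and 25.1 CPM in KO10_S2iL, against 5.93, 5.72 and 6.49 CPM in KO10_SL. For Bmp7 the log2 fold change was 2.07 ± 0.33 (SE, edgeR adjusted p = 1.47e-04) and the receptor Bmpr2 rose (0.59 ± 0.15), 2 higher and 4 lower of 13 in all. In the Nodal pathway 3 of 13 rose, the receptors Acvr1b (0.73 ± 0.17) and Acvr2b (1.09 ± 0.18) and the SMAD corepressor Skil (0.61 ± 0.22), and Gdf3 fell (-0.70 ± 0.21). Beside 19.6% higher and 17.3% lower of all genes, the Nodal counts are near or below the background. Nodal (-0.48 ± 0.32), Lefty1 (-0.80 ± 0.57) and Lefty2 (0.97 ± 0.69) were not called. Calls ended for Id3 (adjusted p 0.0599) and Bmpr2 (adjusted p 0.0542) without KO10_S2iL replicate 2, Skil (adjusted p 0.224) without either KO10_S2iL library or any 1 KO10_SL library and Gdf3 (adjusted p 0.0961) without either KO10_S2iL library.

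Sox17, Sox7, Foxq1 and Gata4 were among the PrE transcription factors that fell with 2i in the knockout, whereas others did not pass the test. Sox17, a SoxF factor that PrE needs to mature, had 3.37 and 2.64 CPM in KO10_S2iL, against 27.3, 23.2 and 24.5 CPM in KO10_SL. Sox17 had a log2 fold change of -3.06 ± 0.51 (SE, edgeR adjusted p = 2.39e-04). Its relative Sox7 had 0.805 and 0.620 CPM in KO10_S2iL, against 11.8, 9.32 and 9.92 CPM in KO10_SL. For Sox7 the log2 fold change was -3.84 ± 0.50 (SE, edgeR adjusted p = 2.29e-05). The forkhead factor Foxq1 had 2.16 and 2.79 CPM in KO10_S2iL, against 37.0, 29.1 and 28.0 CPM in KO10_SL. Foxq1 had a log2 fold change of -3.66 ± 0.59 (SE, edgeR adjusted p = 1.59e-04). In all of these the highest 2i library lay far below the lowest library without 2i. Gata4, a zinc finger factor of PrE, had 8.45 and 9.41 CPM in KO10_S2iL, against 38.5, 33.2 and 33.2 CPM in KO10_SL. For Gata4 the log2 fold change was -1.97 ± 0.54 (SE, edgeR adjusted p = 0.00938). Gata6, which is placed first in the PrE hierarchy and which FGF signalling sustains, had 14.5 and 18.2 CPM in KO10_S2iL, against 42.4, 36.2 and 34.2 CPM in KO10_SL, so that both 2i libraries were below all 3 others, but it missed the threshold (log2 fold change -1.20 ± 0.50 SE, edgeR adjusted p = 0.0718). The call of Gata4 ended without either KO10_S2iL library, with adjusted p up to 0.0812.

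Of 10 tested PrE transcription factors, 6 fell and none rose, with a median of -2.21 beside 0.06 for all genes, Foxa2 (-2.45 ± 0.65) being another of those that fell. Hnf4a (log2 fold change 0.87 ± 0.50 SE, edgeR adjusted p = 0.19), Hhex (-0.023 ± 0.30) and Eomes (0.38 ± 0.36) were not called. The summed level of the list was 55.8 to 61.1 CPM in KO10_S2iL, against 164 to 192 CPM in KO10_SL, and wild-type cells had 29.2 to 30.5 CPM in TG2A_S2iL, 23.6 to 40.6 CPM in TG2A_ESC and 19.04 to 23.1 CPM in E14_ESC. Between 4 and 6 factors were called lower without each of the 5 libraries. The call of Foxa2 ended without KO10_S2iL replicate 1 (log2 fold change -2.17 there) and with DESeq2, which called 5 of the 10 factors lower. Foxq1 shares 66.1% of its exon bases with a gene on the opposite strand, and its reads and those of that gene cannot be told apart without the strand setting.

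The endocytic receptors and other surface genes of PrE also fell. Cubn, the endocytic receptor cubilin (chr2:13276338-13491813 on GRCm38), had 1.51 and 1.65 CPM in KO10_S2iL, against 124, 96.4 and 96.1 CPM in KO10_SL, the largest fall among called genes with at least 10 CPM in the higher group (log2 fold change -6.05 ± 1.37 SE, edgeR adjusted p = 0.0025). Its partners Dab2, an endocytic adaptor (16.7 and 14.8 CPM in KO10_S2iL, against 136, 103 and 107 CPM in KO10_SL, log2 fold change -2.87 ± 0.50 SE, edgeR adjusted p = 3.17e-04), Lrp2, the receptor megalin (-1.49 ± 0.35), and Amn, the cubilin anchor (-1.89 ± 0.38), were lower as well. Srgn, the proteoglycan serglycin, had 0.855 and 1.09 CPM in KO10_S2iL, against 53.0, 46.0 and 45.7 CPM in KO10_SL. Srgn had a log2 fold change of -5.63 ± 0.85 (SE, edgeR adjusted p = 9.38e-05). Pdgfra, the PDGF receptor that marks PrE in the blastocyst, had 4.53 and 4.81 CPM in KO10_S2iL, against 31.5, 22.9 and 19.3 CPM in KO10_SL. For Pdgfra the log2 fold change was -2.40 ± 0.40 (SE, edgeR adjusted p = 2.35e-04). For none of these did the groups overlap.

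Basement membrane genes did not all move together. The laminin chains Lama1 (181 and 188 CPM in KO10_S2iL, against 857, 739 and 748 CPM in KO10_SL, log2 fold change -2.08 ± 0.50 SE, edgeR adjusted p = 0.00395) and Lamb1 (-2.39 ± 0.32), the collagen IV chains Col4a1 (169 and 165 CPM in KO10_S2iL, against 614, 537 and 529 CPM in KO10_SL, log2 fold change -1.74 ± 0.33 SE, edgeR adjusted p = 6.27e-04) and Col4a2 (-1.73 ± 0.32), the matrix protein Sparc (219 and 216 CPM in KO10_S2iL, against 592, 596 and 593 CPM in KO10_SL, log2 fold change -1.45 ± 0.11 SE, edgeR adjusted p = 3.46e-07) and the collagen chaperone Serpinh1 (-1.95 ± 0.21) fell. The nidogens, which bridge laminin and collagen IV, did the opposite: Nid1 had 516 and 510.0 CPM in KO10_S2iL, against 229, 169 and 179 CPM in KO10_SL. Nid1 had a log2 fold change of 1.41 ± 0.27 (SE, edgeR adjusted p = 6.95e-04). Nid2 rose less (log2 fold change 0.82 ± 0.11 SE, edgeR adjusted p = 2.25e-05). The third laminin chain Lamc1 (log2 fold change -0.26 ± 0.39 SE, edgeR adjusted p = 0.634), Hspg2, which encodes perlecan (0.12 ± 0.21), and P4ha2 (-0.34 ± 0.20) were not called. In all 12 of 17 fell and 2 rose (median -1.74), and these counts were the same without each of the 5 libraries in turn. Of the genes of later parietal and visceral endoderm, 5 of 14 fell and 1 rose, with a median of -0.28. Pth1r, the parathyroid hormone receptor of parietal endoderm, had 1.66 and 2.02 CPM in KO10_S2iL, against 12.9, 19.12 and 19.4 CPM in KO10_SL. For Pth1r the log2 fold change was -3.22 ± 0.33 (SE, edgeR adjusted p = 2.88e-06). Ihh (-2.54 ± 0.50), Stra6 (-1.89 ± 0.40) and Apob (-1.90 ± 0.57) were low in both media, and the keratin Krt19 rose (1.33 ± 0.47). Calls ended for Apob (adjusted p 0.119) without either KO10_S2iL library and Krt19 (adjusted p 0.148) without either KO10_S2iL library or any 1 KO10_SL library.

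**Figure D2:**
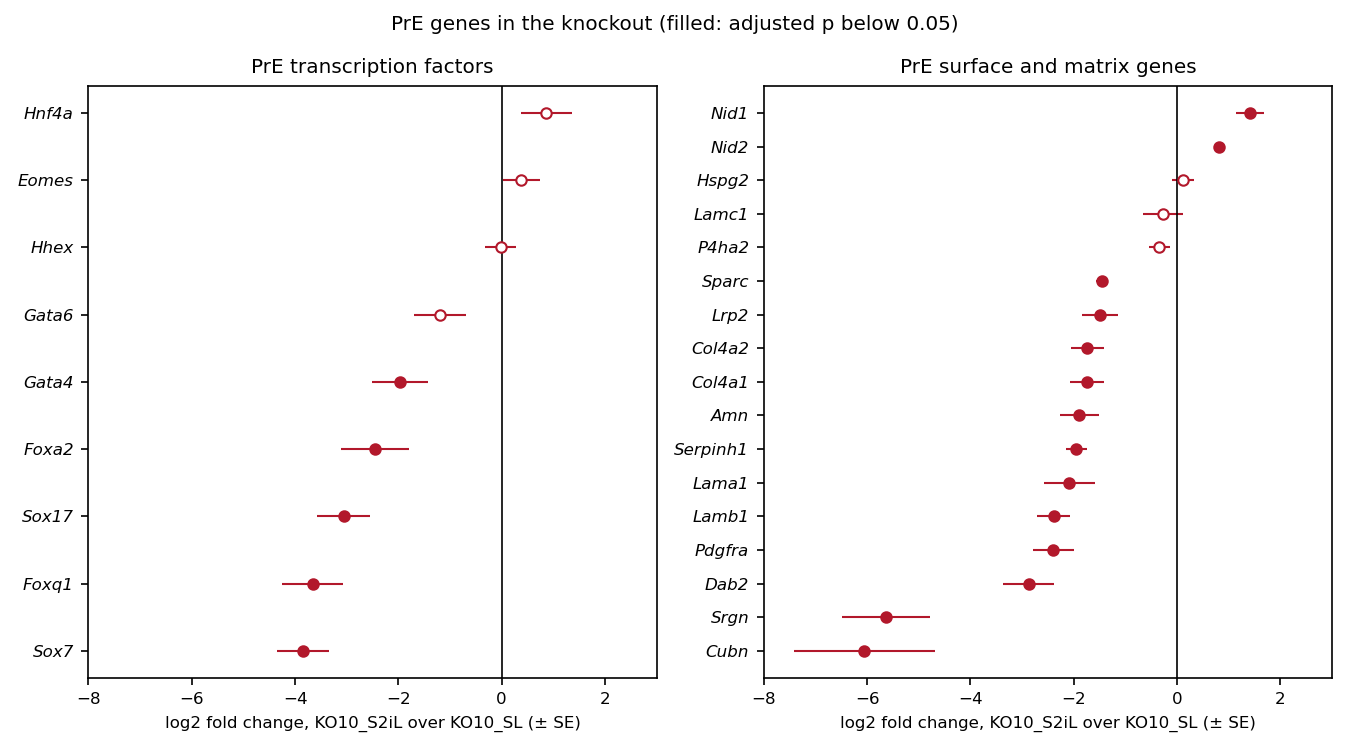
Log2 fold change of KO10_S2iL over KO10_SL (horizontal axis, with SE as bars) for 9 PrE transcription factors and the 17 PrE surface and matrix genes tested, where filled points have an adjusted p below 0.05. Cubn at -6.05 and Srgn at -5.63 lie furthest to the left, and Nid1 at 1.41 and Nid2 at 0.82 are the filled points to the right of 0.

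Levels beside wild-type cells are given as a description, with no test. Sox17 was at 3.37 and 2.64 CPM in KO10_S2iL and 27.3, 23.2 and 24.5 CPM in KO10_SL, while wild-type cells had 0.120 and 0.292 CPM in TG2A_S2iL and 1.56 and 4.40 CPM in TG2A_ESC. Gata6 was at 14.5 and 18.2 CPM in KO10_S2iL and 42.4, 36.2 and 34.2 CPM in KO10_SL, while wild-type cells had 1.74 and 1.34 CPM in TG2A_S2iL and 3.28 and 12.3 CPM in TG2A_ESC. With 2i, both knockout libraries were thus above both wild-type libraries at these genes. Lama1 was at 181 and 188 CPM in KO10_S2iL, against 118 and 115 CPM in TG2A_S2iL and 171 and 168 CPM in TG2A_ESC. Cubn was at 1.51 and 1.65 CPM in KO10_S2iL, against 0.480 and 0.759 CPM in TG2A_S2iL and 15.3 and 4.35 CPM in TG2A_ESC. The TG2A_ESC libraries were uneven at Sox17, Gata6 and Cubn.

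Of the PRC2 subunits more fell than rose. Eed, the subunit that reads H3K27me3, had 97.3 and 98.5 CPM in KO10_S2iL, against 213, 188 and 187 CPM in KO10_SL. Eed had a log2 fold change of -1.001 ± 0.15 (SE, edgeR adjusted p = 7.50e-05). Epop, a cofactor of PRC2 in ESCs, had 253 and 269 CPM in KO10_S2iL, against 766, 672 and 666 CPM in KO10_SL. For Epop the log2 fold change was -1.43 ± 0.18 (SE, edgeR adjusted p = 1.61e-05). Jarid2 (log2 fold change -0.59 ± 0.11 SE, edgeR adjusted p = 5.14e-04), Rbbp4 (-0.49 ± 0.11) and Rbbp7 (-0.59 ± 0.17) were lower too, and Suz12 (0.55 ± 0.18) and Ezh1 (0.61 ± 0.19), the other methyltransferase of the complex, were higher, 2 up and 5 down of 13 tested (median -0.15). Ezh1 had 24.6 and 25.4 CPM in KO10_S2iL, against 16.8, 16.3 and 15.9 CPM in KO10_SL. Of 19 PRC1 subunits 6 rose, among them Phc3 (1.01 ± 0.12), and 3 fell, among them Phc1 (-0.66 ± 0.079). Without single libraries 2 to 5 PRC1 subunits were called higher. Calls ended for Suz12 (adjusted p 0.169) and Cbx7 (adjusted p 0.184) without either KO10_S2iL library or KO10_SL replicate 2 or 3, Ezh1 (adjusted p 0.104) without either KO10_S2iL library or KO10_SL replicate 3, Rbbp7 (adjusted p 0.0884) without either KO10_S2iL library and Pcgf2 (adjusted p 0.082) without KO10_S2iL replicate 2.

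Few of the targets of PRC2 were called. Of 33 tested Hox genes, 3 rose and 3 fell, and of 34 other developmental factors that PRC2 marks in ESCs, 5 rose and 2 fell, beside 19.6% and 17.3% of all genes. Gata2, a blood and trophoblast factor, rose most, with 17.7 and 19.5 CPM in KO10_S2iL, against 2.36, 2.41 and 2.42 CPM in KO10_SL. Gata2 had a log2 fold change of 2.95 ± 0.31 (SE, edgeR adjusted p = 3.83e-06). Hoxc12 rose (log2 fold change 1.82 ± 0.45 SE, edgeR adjusted p = 0.00615) with Hoxc4 (1.17 ± 0.36) and Hoxb4 (1.06 ± 0.26), and Hoxd13 (7.75 and 7.81 CPM in KO10_S2iL, against 18.6, 21.1 and 18.5 CPM in KO10_SL, log2 fold change -1.32 ± 0.36 SE, edgeR adjusted p = 0.00931), Hoxa10 (-1.12 ± 0.38) and Hoxa11 (-1.86 ± 0.59) fell. Tbx5 (1.91 ± 0.67), Cdx2 (1.88 ± 0.64) and Irx3 (1.32 ± 0.50) were called higher. The neural factors Pax6 (3 and 4 counts in KO10_S2iL, against 39, 17 and 22 counts in KO10_SL, edgeR adjusted p = 0.0174) and Olig2 (1 and 3 counts in KO10_S2iL, against 18, 19 and 8 counts in KO10_SL, edgeR adjusted p = 0.027) were called lower at counts too few for a fold. Calls ended for Hoxc4 (adjusted p 0.0971), Hoxa10 (adjusted p 0.172), Hoxa11 (adjusted p 0.145) and Olig2 (adjusted p 0.194) without either KO10_S2iL library or KO10_SL replicate 1 or 2, Hoxd13 (adjusted p 0.0751) without either KO10_S2iL library, Tbx5 (adjusted p 0.188), Cdx2 (adjusted p 0.126) and Irx3 (adjusted p 0.212) without either KO10_S2iL library or any 1 KO10_SL library, Pax6 (adjusted p 0.123) without either KO10_S2iL library or KO10_SL replicate 1 and Hoxb4 (adjusted p 0.0555) without KO10_S2iL replicate 1. Hoxa11 shares 35% of its exon bases with the antisense gene Hoxa11os.

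Markers of other lineages changed in part. Of 12 tested trophoblast genes, 5 rose and none fell (median 0.81). Tfap2c, an AP-2 factor shared by trophoblast, naive cells and germ cells, had 61.1 and 63.3 CPM in KO10_S2iL, against 20.2, 23.7 and 21.4 CPM in KO10_SL. For Tfap2c the log2 fold change was 1.52 ± 0.30 (SE, edgeR adjusted p = 9.38e-04). The keratins Krt7 (2.05 ± 0.64) and Krt8 (0.88 ± 0.32), the placental gene Plac1 (2.30 ± 0.71) and Cdx2 were the others. Eomes and Gata3 (0.56 ± 0.58) were not called. Without each of the 5 libraries in turn, 1 to 3 of these trophoblast genes were called, and the calls of Krt7, Krt8, Plac1 and Cdx2 ended, for Krt7 (adjusted p 0.0913) without either KO10_S2iL library or KO10_SL replicate 1, Krt8 (adjusted p 0.159) and Cdx2 (adjusted p 0.126) without either KO10_S2iL library or any 1 KO10_SL library and Plac1 (adjusted p 0.111) without either KO10_S2iL library or KO10_SL replicate 1 or 2.

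In neuroectoderm 3 of 8 fell and 1 rose. Tubb3, the neuronal tubulin, had 29.3 and 29.9 CPM in KO10_S2iL, against 103, 110.4 and 107 CPM in KO10_SL. Tubb3 had a log2 fold change of -1.85 ± 0.37 (SE, edgeR adjusted p = 0.00108). Neurog3 had 2 and 1 counts in KO10_S2iL against 65, 78 and 45 counts in KO10_SL and was called lower (edgeR adjusted p = 8.82e-05). Map2 rose (1.49 ± 0.46). Among 11 primitive streak and mesoderm genes, Gsc rose (2.01 ± 0.59) and Evx1 fell (3 and 4 counts in KO10_S2iL, against 49, 57 and 55 counts in KO10_SL, edgeR adjusted p = 0.00501). None of 8 tested 2-cell-like genes was called, Zscan4c holding 97.4 and 95.2 CPM in KO10_S2iL, against 82.2, 102 and 95.01 CPM in KO10_SL. For Zscan4c the log2 fold change was 0.049 ± 0.68 (SE, edgeR adjusted p = 0.968), and it belongs to a family of near-identical copies whose reads are hard to assign. Of 17 germline genes 4 fell, led by the piRNA factor Mael (37.0 and 43.3 CPM in KO10_S2iL, against 106, 106 and 107 CPM in KO10_SL, log2 fold change -1.41 ± 0.30 SE, edgeR adjusted p = 0.00183) and the helicase Ddx4 (-1.07 ± 0.21), and Tex101 rose (1.82 ± 0.64). The other falls were Sycp3, whose call ended without either KO10_S2iL library or KO10_SL replicate 3, and Taf7l. The call of Taf7l ended without KO10_S2iL replicate 2 or KO10_SL replicate 3. Sycp3 shares 52.2% of its exon bases with Chpt1 on the opposite strand. Of 23 imprinted genes 5 fell and 3 rose, with Plagl1 (7.35 and 8.68 CPM in KO10_S2iL, against 1.02, 0.654 and 0.551 CPM in KO10_SL, log2 fold change 3.42 ± 0.48 SE, edgeR adjusted p = 4.63e-05) and Igf2r (1.24 ± 0.24) higher and Dlk1 (-2.17 ± 0.53), Mcts2 (-1.35 ± 0.17) and Snrpn (-1.05 ± 0.14) lower. These counts include Mest (higher), whose call ended without either KO10_S2iL library or any 1 KO10_SL library. They also include Nnat (lower), whose call ended without either KO10_S2iL library or KO10_SL replicate 2 or 3. Beside 19.6% higher and 17.3% lower of all genes, the germline and imprinted counts are near or below the background. Calls ended for Map2 (adjusted p 0.0958) without either KO10_S2iL library or KO10_SL replicate 1, Gsc (adjusted p 0.0769) without either KO10_S2iL library or KO10_SL replicate 1 or 2, Evx1 (adjusted p 0.0646) and Dlk1 (adjusted p 0.0615) without KO10_S2iL replicate 1 and Tex101 (adjusted p 0.15) without either KO10_S2iL library or any 1 KO10_SL library.

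Of 16 tested cell cycle genes 4 rose and 4 fell, beside 19.6% and 17.3% of all genes, so the counts are near the background. Ccnd2, the D-type cyclin, had 9.86 and 9.62 CPM in KO10_S2iL, against 34.9, 38.6 and 38.2 CPM in KO10_SL. Ccnd2 had a log2 fold change of -1.93 ± 0.25 (SE, edgeR adjusted p = 2.01e-05). Ccne1, which drives entry into S phase, had 69.0 and 73.4 CPM in KO10_S2iL, against 184, 179.8 and 170.1 CPM in KO10_SL. For Ccne1 the log2 fold change was -1.32 ± 0.11 (SE, edgeR adjusted p = 7.57e-07). Ccnd3 (-0.77 ± 0.10) and Cdk4 (-0.82 ± 0.13) fell with them. Cdkn1a, which encodes p21, had 139 and 135 CPM in KO10_S2iL, against 31.8, 38.6 and 41.0 CPM in KO10_SL. Cdkn1a had a log2 fold change of 1.88 ± 0.33 (SE, edgeR adjusted p = 3.80e-04). Cdkn2c, which encodes p18, had 4.78 and 5.12 CPM in KO10_S2iL, against 1.83, 1.80 and 1.74 CPM in KO10_SL. For Cdkn2c the log2 fold change was 1.46 ± 0.23 (SE, edgeR adjusted p = 1.22e-04). Cdkn1b (0.83 ± 0.18) and the p53 target Trp53inp1 (1.01 ± 0.21) also rose, and the counts were the same without each of the 5 libraries in turn. The other inhibitors of cyclin-dependent kinases in the list, Cdkn1c (0.41 ± 0.66), Cdkn2a (0.051 ± 0.37) and Cdkn2b (1.08 ± 0.68), were not called. Ccnd1 (-0.53 ± 0.37), Ccna2 (-0.27 ± 0.11) and Ccnb1 (-0.28 ± 0.14) were not called.

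Fatty acid synthesis genes rose, as did part of the lysosomal genes. Scd1 and Scd2, the desaturases that make monounsaturated fatty acids, rose most: Scd1 had 687 and 699.8 CPM in KO10_S2iL, against 203, 148 and 153 CPM in KO10_SL. Scd1 had a log2 fold change of 2.05 ± 0.23 (SE, edgeR adjusted p = 6.16e-06). Scd2 had 2395 and 2455 CPM in KO10_S2iL, against 925, 733 and 743 CPM in KO10_SL. For Scd2 the log2 fold change was 1.60 ± 0.23 (SE, edgeR adjusted p = 6.14e-05). Srebf1, the factor that drives fatty acid synthesis, had 249 and 248 CPM in KO10_S2iL, against 111, 96.5 and 95.9 CPM in KO10_SL. Srebf1 had a log2 fold change of 1.30 ± 0.13 (SE, edgeR adjusted p = 1.84e-06). Fasn (1.08 ± 0.18), Srebf2 (0.62 ± 0.10) and Acaca (0.50 ± 0.15) were higher. In the sterol branch Hmgcs1 (0.041 ± 0.26) and Sqle (0.094 ± 0.25) were not called and Idi1 (-0.80 ± 0.24) and Mvd (-0.54 ± 0.17) fell, so that 6 of 19 rose and 2 fell (median 0.22). Of 18 lysosomal genes 8 rose and 1 fell (median 0.38), but 6 were called higher without KO10_S2iL replicate 1 and 4 without replicate 2, the last a share near the background. Gpnmb, a lysosomal membrane glycoprotein, had 28.7 and 27.0 CPM in KO10_S2iL, against 0.772, 0.940 and 0.975 CPM in KO10_SL. For Gpnmb the log2 fold change was 4.95 ± 1.32 (SE, edgeR adjusted p = 0.00758). Lamp2 had 53.7 and 60.7 CPM in KO10_S2iL, against 25.5, 25.3 and 24.4 CPM in KO10_SL. Lamp2 had a log2 fold change of 1.19 ± 0.16 (SE, edgeR adjusted p = 2.84e-05). The protease Ctsl fell (243 and 232 CPM in KO10_S2iL, against 633, 559.7 and 565 CPM in KO10_SL, log2 fold change -1.30 ± 0.24 SE, edgeR adjusted p = 5.60e-04). Ctsl shares 26.8% of its exon bases with a gene on the opposite strand. Calls ended for Acaca (adjusted p 0.0886) and Npc1 (adjusted p 0.189) without either KO10_S2iL library or KO10_SL replicate 2 or 3, Idi1 (adjusted p 0.0885) without either KO10_S2iL library, Mvd (adjusted p 0.119) without either KO10_S2iL library or KO10_SL replicate 1, Ctsb (adjusted p 0.16) without either KO10_S2iL library or any 1 KO10_SL library and Neu1 (adjusted p 0.0613) without KO10_S2iL replicate 2.

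Of the glycolytic genes called, all but 1 fell. Hk1, a hexokinase, rose, with 257 and 258 CPM in KO10_S2iL, against 76.1, 89.6 and 86.2 CPM in KO10_SL. For Hk1 the log2 fold change was 1.62 ± 0.11 (SE, edgeR adjusted p = 1.72e-07). Pfkl had 303 and 297 CPM in KO10_S2iL, against 462, 532 and 517 CPM in KO10_SL. Pfkl had a log2 fold change of -0.75 ± 0.18 (SE, edgeR adjusted p = 0.00318). Ldha (-0.77 ± 0.23), Pgam1 (-0.61 ± 0.18), Pgk1 (-0.48 ± 0.17), Aldoa (-0.43 ± 0.16) and Gapdh (-0.38 ± 0.13) fell, 6 of 17 in all (median -0.43). Of 15 ATF4 targets and amino acid response genes, 3 were called lower, namely Atf4 (-0.62 ± 0.18), Shmt2 (-0.72 ± 0.25) and Chac1 (-1.67 ± 0.62). Beside 17.3% lower of all genes, the ATF4 count is near the background. Without single libraries, 1 to 5 glycolytic genes and 0 to 2 ATF4 genes were called lower. Calls ended for Ldha (adjusted p 0.101) and Atf4 (adjusted p 0.079) without either KO10_S2iL library, Pgam1 (adjusted p 0.114) without KO10_S2iL replicate 1, Pgk1 (adjusted p 0.16) and Shmt2 (adjusted p 0.151) without either KO10_S2iL library or any 1 KO10_SL library and Aldoa (adjusted p 0.187), Gapdh (adjusted p 0.15) and Chac1 (adjusted p 0.19) without either KO10_S2iL library or KO10_SL replicate 2 or 3.

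Among junction genes Cdh1, Cldn4 and Tjp1 rose, and no marker of fibroblasts or macrophages was called. Cdh1, which encodes E-cadherin, had 518 and 509 CPM in KO10_S2iL, against 312, 287 and 291 CPM in KO10_SL. For Cdh1 the log2 fold change was 0.79 ± 0.11 (SE, edgeR adjusted p = 3.29e-05). The tight junction gene Cldn4 had 143 and 141 CPM in KO10_S2iL, against 30.9, 43.0 and 39.9 CPM in KO10_SL. Cldn4 had a log2 fold change of 1.90 ± 0.26 (SE, edgeR adjusted p = 3.44e-05). Tjp1, which encodes ZO-1, changed less (0.48 ± 0.11). Of 15 junction and EMT genes 3 rose and 1 fell, the one that fell being Twist1 (-1.80 ± 0.69), and of 15 cytoskeletal and YAP target genes 2 rose, Amotl2 (0.49 ± 0.16) and Vcl (0.71 ± 0.27). Beside 19.6% higher and 17.3% lower of all genes, the counts of both lists are near or below the background. None of 15 tested fibroblast markers was called (median 0.42), and their summed level was 177 to 179 CPM in KO10_S2iL, against 104 to 112 CPM in KO10_SL. Col5a1 took the most counts of them per library (60.1 and 59.0 CPM in KO10_S2iL, against 42.4, 39.5 and 35.8 CPM in KO10_SL), whereas Col3a1 was at 0 and 0 CPM in KO10_S2iL and 0, 0 and 0.127 CPM in KO10_SL. None of 5 tested macrophage markers was called, with sums of 11.8 to 13.5 CPM in KO10_S2iL, against 6.14 to 8.21 CPM in KO10_SL. With no filter on low counts, 5 of 15 fibroblast and 2 of 11 macrophage markers were called higher and none lower. DESeq2 called 1 of 5 macrophage markers higher and no fibroblast marker. The part of such cells in the results was not tested. Calls ended for Twist1 (adjusted p 0.213) without either KO10_S2iL library or any 1 KO10_SL library and Amotl2 (adjusted p 0.134) and Vcl (adjusted p 0.164) without either KO10_S2iL library or KO10_SL replicate 2 or 3.

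**Figure D3:**
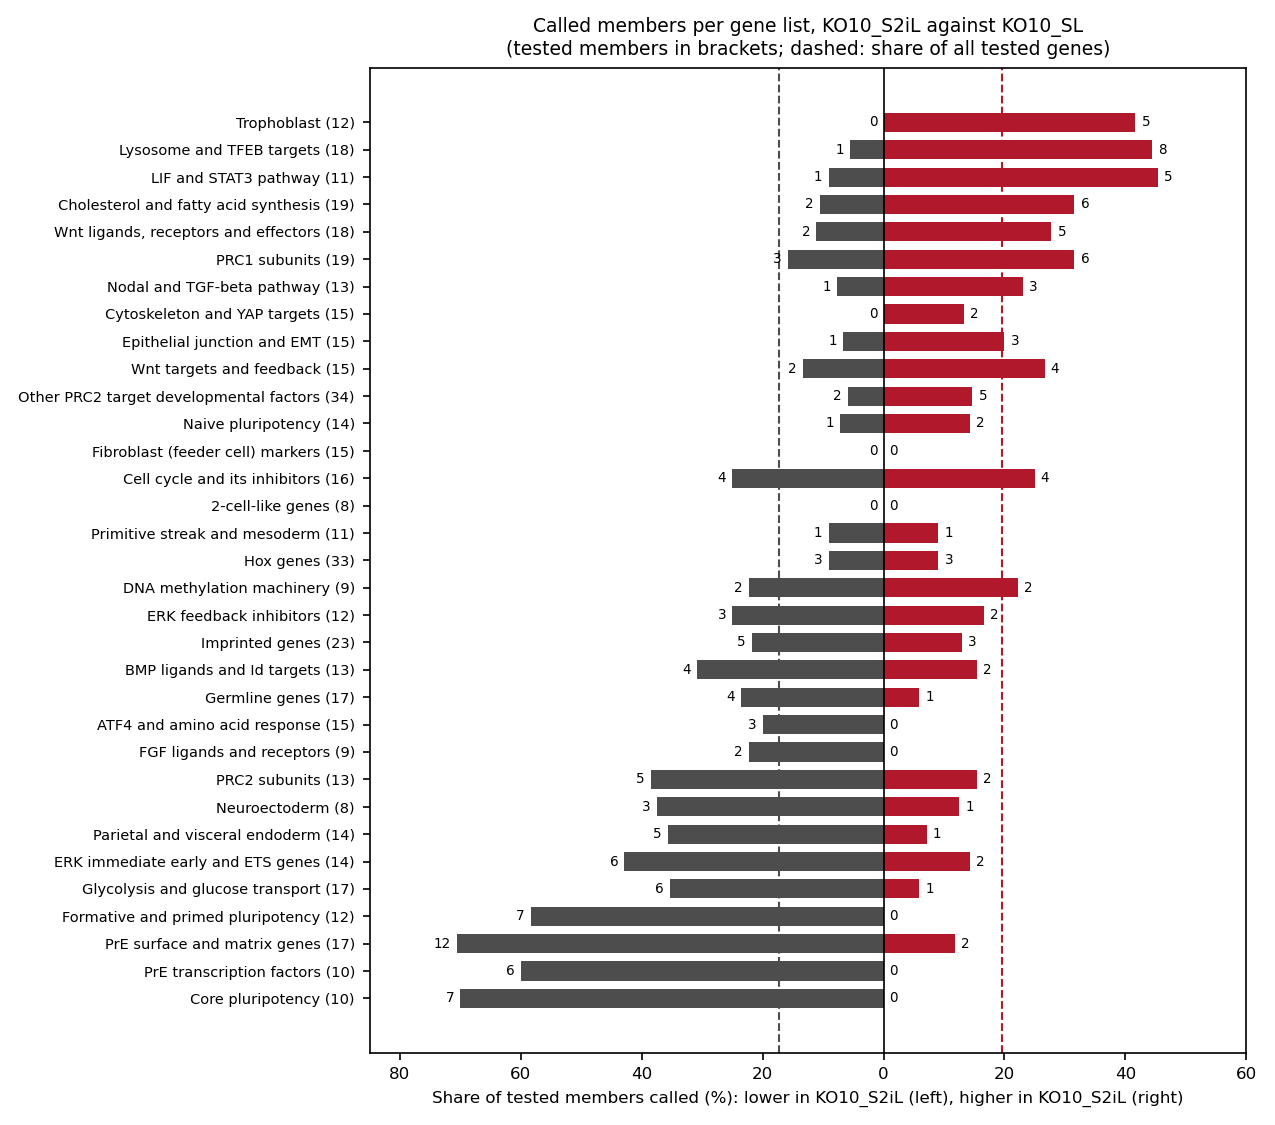
Share of tested members called higher (right, with the count) and lower (left, with the count) in KO10_S2iL against KO10_SL for each list with at least 8 tested members, without the lists of ribosome, respiration and Xlr genes gathered after values were seen, and with dashed lines at the 19.6% and 17.3% of all tested genes. Of the lists shown, core pluripotency (7 of 10) and PrE surface and matrix (12 of 17) reach furthest to the left, and the LIF (5 of 11), lysosome (8 of 18) and trophoblast (5 of 12) lists furthest to the right.

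The largest changes lay partly outside these lists. Besides Gpnmb, the 8 largest rises were the retinaldehyde dehydrogenase Aldh1a3 (17.1 and 14.8 CPM in KO10_S2iL, against 0.975, 0.654 and 0.466 CPM in KO10_SL, log2 fold change 4.497 ± 0.38 SE, edgeR adjusted p = 6.15e-07), Cyp2b23 (4.09 ± 0.37), the aldehyde oxidase Aox3 (3.72 ± 0.75), Xlr3c (3.69 ± 0.40) and Xlr5a (3.47 ± 0.79) of an X-linked multicopy family, the non-coding RNA Lncenc1 (354 and 346 CPM in KO10_S2iL, against 32.1, 30.9 and 30.4 CPM in KO10_SL, log2 fold change 3.49 ± 0.32 SE, edgeR adjusted p = 1.20e-06) and Slfn9 (3.25 ± 0.52). Besides Cubn, Srgn, Sox7 and Spry4, the 8 largest falls were the adenosine receptor Adora1 (0.553 and 0.517 CPM in KO10_S2iL, against 10.9, 9.32 and 10.05 CPM in KO10_SL, log2 fold change -4.22 ± 0.56 SE, edgeR adjusted p = 2.74e-05), Tmem88 (-4.01 ± 0.42), Nostrin (-3.97 ± 0.59) and the antisense RNA Rbfaos (-3.76 ± 0.41). The reads of Rbfaos and of its partner, and those of Adora1 and Mybph, which share 20.1% of the exon bases of Adora1, cannot be told apart without the strand setting. Xlr genes are near-identical copies, and their single values are uncertain for that reason. These were taken from called genes with at least 10 CPM in the higher group, predicted gene models left aside. On the log2 scale the 8 rises ranged from 3.25 to 4.95.

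Wild-type cells changed in the same direction at most of the genes called in both. TG2A_S2iL against TG2A_ESC gave 2055 genes higher (11.7%) and 2031 lower (11.6%), 4086 in all. Of these, 2874 were also called in the knockout, and 47 of them went in opposite directions. The shared genes with 1 direction, 1442 higher in both and 1385 lower in both, were 43.6% of the knockout's calls and 69.2% of the wild-type calls. The 2 comparisons share no library, and across all 17547 genes, which are not independent replicates, their fold changes correlated with r = 0.52. Spry4 fell to 10.98 and 10.5 CPM in TG2A_S2iL, against 135 and 196 CPM in TG2A_ESC (log2 fold change -3.95 ± 0.50), and Axin2 had 20.9 and 18.6 CPM in TG2A_S2iL, against 5.88 and 6.24 CPM in TG2A_ESC (1.70 ± 0.29). Myc (-3.75 ± 0.22), Dnmt3a (-2.56 ± 0.18), Tfcp2l1 (1.78 ± 0.46) and Pou5f1 (-0.74 ± 0.19) also moved as in the knockout. Of the PrE transcription factors 6 of 10 fell in the knockout and 4 of 10 in wild-type cells, where 2 also rose, and of the surface and matrix genes 12 of 17 fell in the knockout and 4 of 17 in wild-type cells, where 2 also rose. Whether the list shares differ was not tested.

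**Figure D4:**
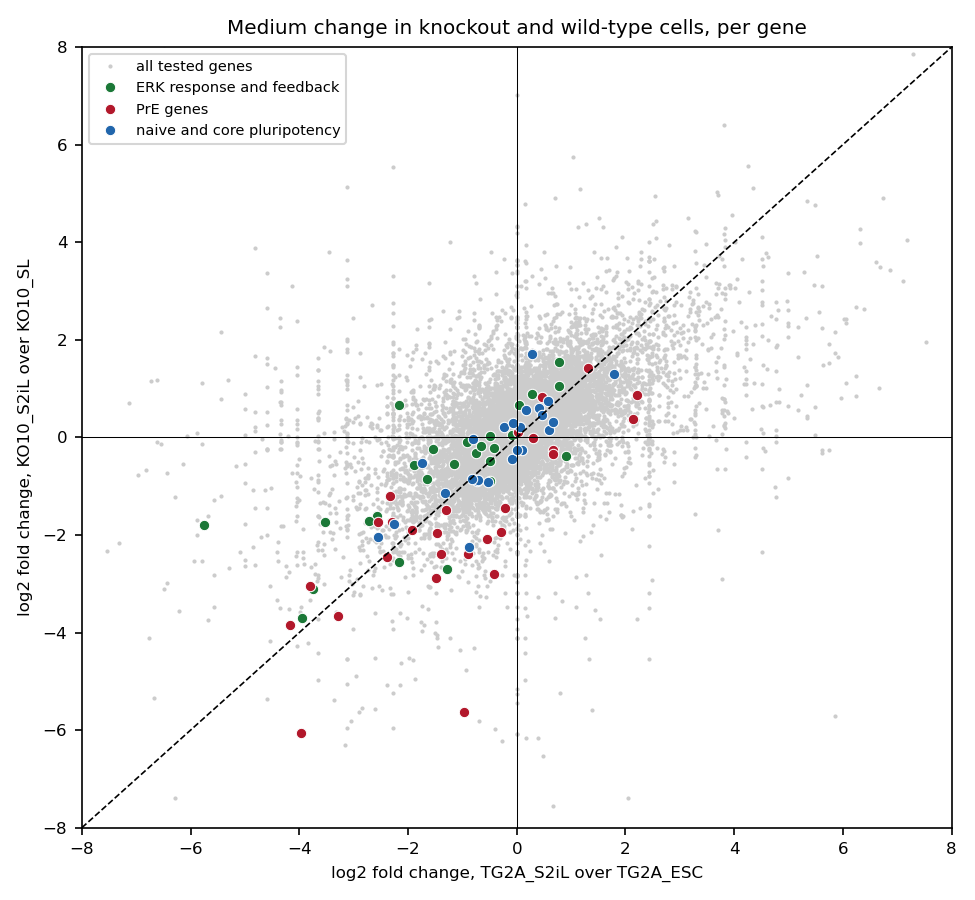
Log2 fold change with 2i of each tested gene in the knockout (KO10_S2iL over KO10_SL, vertical) against the wild type (TG2A_S2iL over TG2A_ESC, horizontal), with ERK, PrE and pluripotency genes in colour and a dashed line of equal change. Spry4, at -3.69 in the knockout and -3.95 in the wild type, lies near the line, and Srgn at -5.63 in the knockout and -0.98 in the wild type lies far below the line.

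Whether the medium effect differed with the genotype was tested directly as the difference between both log2 fold changes, and 343 of 17547 genes (1.95%) were called, 147 with a more positive and 196 with a more negative effect in the knockout. With edgeR's RLE scaling in place of TMM this split was 186 and 140. Leaving out single libraries gave 44 to 386 calls, the fewest without a library with 2i. The genes named next as the largest differences come from called genes whose mean reached 10 CPM in 1 or more of the 4 groups, predicted gene models left aside. Scarcer genes with larger called differences, such as Hoxc11 (-4.09 ± 0.88), are not among them. Fgf17 had the most negative difference of these, with 0.101 and 0.155 CPM in KO10_S2iL and 6.66, 7.81 and 8.18 CPM in KO10_SL, while wild-type cells held 11.4 and 12.4 CPM in TG2A_S2iL and 18.99 and 19.4 CPM in TG2A_ESC (difference -5.12 ± 0.70 SE on the log2 scale, edgeR adjusted p = 0.00207). Klb, the co-receptor of endocrine FGFs (-4.98 ± 1.02), Bhmt (-3.60 ± 0.58), Plagl1 (-3.44 ± 0.77) and Calb2 (-3.18 ± 0.58) followed. The most positive differences at that level were at Atp12a (3.51 ± 0.83), Mest (3.41 ± 0.76), mt-Atp8 (3.37 ± 0.63), Dmkn (3.07 ± 0.57) and the epithelial factor Grhl2 (2.62 ± 0.49). Among the PrE genes the difference was called at Sparc (difference -1.23 ± 0.16 SE on the log2 scale, edgeR adjusted p = 0.00207) and Serpinh1 (difference -1.65 ± 0.30 SE on the log2 scale, edgeR adjusted p = 0.00998), both falling more in the knockout, and at no PrE transcription factor. In wild-type cells Sparc had 175 and 164 CPM in TG2A_S2iL and 180.5 and 214 CPM in TG2A_ESC. Srgn (difference -4.65 ± 1.37 SE, edgeR adjusted p = 0.0894), Lama1 (difference -1.54 ± 0.70 SE, edgeR adjusted p = 0.277), Lamb1 (difference -1.50 ± 0.44 SE, edgeR adjusted p = 0.0896) and Cubn (difference -2.08 ± 2.67 SE, edgeR adjusted p = 0.761) missed the threshold, which does not show that the effects were alike. No member of the ERK, naive, core pluripotency, formative or DNA methylation lists was called for the difference, where Dnmt3a gave 0.71 ± 0.23 SE and Etv4 -1.42 ± 0.58 SE. Of 26 named genes called for the difference, 4 kept the call under every alternative, namely Fgf17, Gab1, Sparc and Rpl10l. Calls of the difference ended for Klb (adjusted p 0.116) without either KO10_S2iL library or either TG2A_S2iL library or TG2A_ESC replicate 1, Bhmt (adjusted p 0.0513) without KO10_S2iL replicate 2, Plagl1 (adjusted p 0.138) without either KO10_S2iL library or any 1 KO10_SL library or either TG2A_S2iL library or TG2A_ESC replicate 2, Calb2 (adjusted p 0.111), Grhl2 (adjusted p 0.0859) and Serpinh1 (adjusted p 0.0723) without either KO10_S2iL library or either TG2A_S2iL library, Atp12a (adjusted p 0.193) and Mest (adjusted p 0.211) without either KO10_S2iL library or any 1 KO10_SL library or either TG2A_S2iL library or TG2A_ESC replicate 1, mt-Atp8 (adjusted p 0.116) without KO10_S2iL replicate 2 or TG2A_S2iL replicate 1 and Dmkn (adjusted p 0.09) without either KO10_S2iL library or TG2A_S2iL replicate 2 or TG2A_ESC replicate 2. Mest shares 23.1% of its exon bases with Copg2 on the opposite strand and mt-Atp8 shares 21.1% with mt-Atp6, so that the reads of these pairs are hard to separate.

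**Figure D5:**
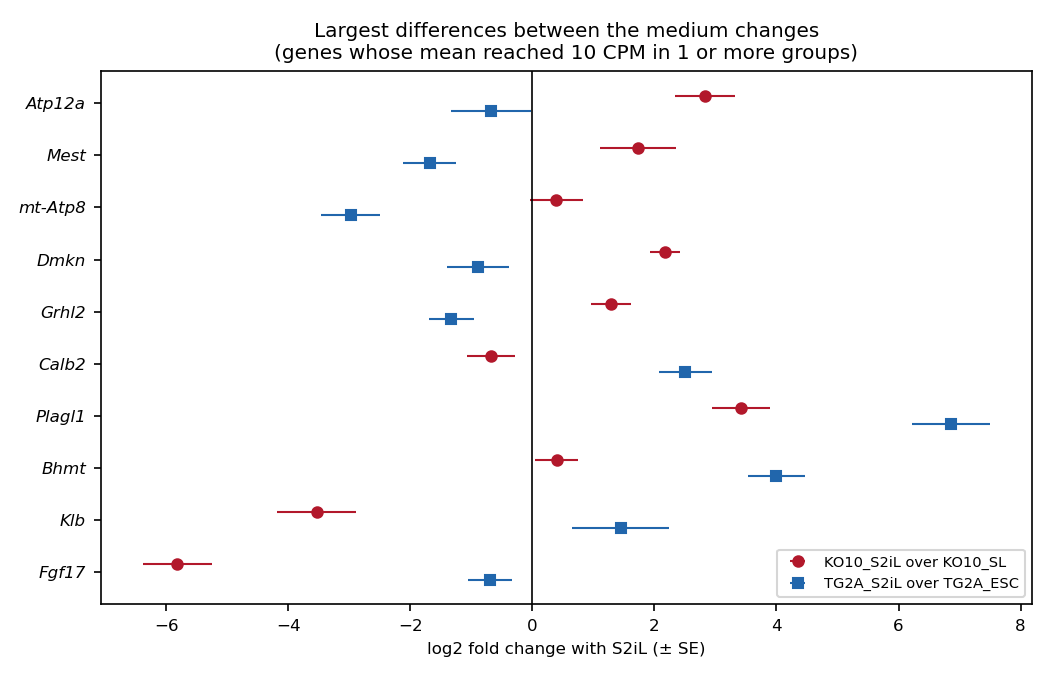
Log2 fold change with 2i (± SE, horizontal axis) in the knockout (circles) and in the wild type (squares) for the 5 largest called differences in each direction among genes whose mean reached 10 CPM in 1 or more groups, predicted gene models left aside. Fgf17 lies at -5.81 in the knockout and -0.69 in the wild type, and Mest at 1.73 in the knockout and -1.68 in the wild type.

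The wild-type side of these comparisons depended on the set used as its control. E14_ESC against TG2A_ESC, both wild type and cultured with LIF, gave 4270 called genes (24.3%), beside the 4086 of the medium comparison in wild-type cells. PrE genes were among them, such as Sox17 (-3.64 ± 0.84), Gata6 (-2.88 ± 0.67) and Foxq1 (-2.68 ± 0.84), all lower in E14_ESC. Of 10 core pluripotency genes, 6 were also called lower in E14_ESC and none higher. Their summed level was 5857 to 6345 CPM in E14_ESC, against 7809 to 9764 CPM in TG2A_ESC. With E14_ESC as the wild-type control, the difference of the medium effects was called at 4557 genes, which included 306 of the 343, and the wild-type comparison gave 2888 calls, which included 1347 of the 4086. Mest, mt-Atp8 and Vldlr were among the differences that ended with that control, at 1.92 (edgeR adjusted p = 0.0688), 0.21 (adjusted p = 0.85) and -0.066 (adjusted p = 0.951). The comparison within the knockout contrasts neither wild-type set, but both entered the filter, the scaling and the estimate of its spread. With the compared groups alone it gave 10037 calls, beside 6482.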

How the data were processed

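RNA-seq was measured in 22 mouse libraries of 10 groups. The table holds the estimated counts that the authors deposited for 55367 gene symbols, made with Trim Galore and STAR 2.7.6a on mm10 per the submitters' processing notes, which also name DESeq2. In each library 5.71 to 7.26% of the values are fractional. No source used here gives the counting tool, annotation or strand setting. The labels name polyA RNA and also an rRNA depletion kit, so how RNA was selected is uncertain.

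Values were rounded and fitted in edgeR 4.0.16 (R 4.3.3) by quasi-likelihood over all 22 libraries with 1 coefficient per group (12 residual degrees of freedom), TMM scaling, filterByExpr and Benjamini-Hochberg adjustment. Genes with an adjusted p below 0.05 were called. SE is the fold change divided by the root of F. The comparisons were KO10_S2iL against KO10_SL, TG2A_S2iL against TG2A_ESC, the difference between both, and E14_ESC against TG2A_ESC. The other groups entered only the filter, the scaling and the estimate of the spread. The code was tested on simulated data. Total counts of 13586043 to 26280949 limit the precision of scarce genes. Alternatives were RLE scaling, no filter, DESeq2 1.42.0, the compared groups alone, a replicate block, E14_ESC as control, and leaving out single libraries.

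Members and gene lists were chosen with earlier results of these data known. Named by rule were 24 landmark genes, up to 3 called members per list and those going against the rest, the 8 largest called changes each way, predicted gene models left aside (without overlap, and with 10 CPM or more in the group with more RNA), and 5 differences each way. Other list members were named after their values were seen. Promoter windows are from RefSeq, and 241 of 244 named genes were found once in GENCODE M21. Some list members are counted but not reported here by name.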

Additional observations from a re-analysis of the deposited data

Results flagged for a closer look

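The effect of 2i differed between knockout and wild type at 343 genes by the test of the difference itself (edgeR). The values below are differences of log2 fold changes, knockout minus wild type, for the named genes among them. Fgf17 differed by -5.12, Klb by -4.98, Hoxc11 by -4.09, Bhmt by -3.60, Plagl1 by -3.44, Calb2 by -3.18, Meis2 by -2.79, Tmem88 by -2.51 and Vldlr by -2.24. Smaller negative differences were those of Ctsl (-1.73), Serpinh1 (-1.65), Rpl10l (-1.29), Sparc (-1.23) and Nop16 (-0.57). Positive differences were those of Atp12a (3.51), Mest (3.41), mt-Atp8 (3.37), Dmkn (3.07), Grhl2 (2.62), Lncenc1 (2.50), Gab1 (1.83), Ccnd2 (1.64), Skil (1.42), Cbx7 (0.74), Dkc1 (0.70) and Jarid2 (0.64). Of these 26 genes, Fgf17, Gab1, Sparc and Rpl10l kept the call under every alternative tried. Ctsl and Mest share 26.8% and 23.1% of their exon bases with a gene on the opposite strand.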

How the results depend on the processing

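In the knockout, 6482 calls became 6536 with RLE scaling, 6403 with no filter, 6733 with DESeq2, 5487 with the replicate block, 10037 with the compared groups alone and 3847 to 5572 without single libraries. Thinning KO10_SL to the depth of KO10_S2iL, chosen after seeing the data, gave 6394. In wild-type cells, 4086 calls became 3623 to 4556 under scaling, filter, tool, block and group choices, 2888 with E14_ESC as control and 2076 to 3544 without single libraries. The 343 differences became 923 with no filter, 992 with DESeq2, 165 with the replicate block, 1795 with the compared groups alone, 4557 with E14_ESC as control, 44 to 386 without single libraries and 322 after thinning. E14_ESC against TG2A_ESC gave 3735 to 4713 calls, beside 4270. Of 204 named genes called in the knockout, 131 kept the call under every alternative, and none of the 204 changed direction. Changes of sign at genes that were called neither in the main fit nor in the alternative were not counted. With the compared groups alone, 22 named genes that the main fit did not call became called. With no filter 12 did so, and with DESeq2 4. A gene given as not called is thus so under the main setting only. The deviations of equally numbered libraries correlated at -0.028 and -0.034 in the knockout and at 0.020 in TG2A. With 2 libraries with 2i, whose deviations mirror each other, these values cannot show whether libraries were paired. Fewer calls with the replicate block were thus not read as weaker effects. Leaving out a library with 2i leaves 1 in its arm. Why calls moved was not tested.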

Other observations

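Genes of protein synthesis and respiration, gathered into lists after their values were seen, were mostly lower with 2i in the knockout. Of 81 tested ribosomal protein genes 70 fell and 1 rose (median log2 fold change -0.54, beside 0.06 for all genes), of 75 oxidative phosphorylation genes 59 fell and none rose (median -0.74), and of 22 ribosome biogenesis genes 19 fell and 1 rose (median -0.76). Leaving out single libraries gave 51 to 68, 45 to 56 and 18 to 19 genes lower in these lists. In wild-type cells 27, 33 and 13 members of the lists fell. E14_ESC against TG2A_ESC, both wild type and without 2i, gave 65, 57 and 16 members lower and 1, 0 and 0 higher. Such falls were thus also present between sets without a labelled difference in medium, and why was not tested. Ribosomal protein genes took 6.33 to 6.91% of counts in KO10_S2iL, against 7.92 to 8.76% in KO10_SL. Nop16, a ribosome assembly factor, had 57.4 and 51.6 CPM in KO10_S2iL, against 121, 119.9 and 126 CPM in KO10_SL. For Nop16 the log2 fold change was -1.17 ± 0.093 (SE, edgeR adjusted p = 4.43e-07), with no overlap. Rpl38 and Rps28, picked after their values were seen, were uneven between the replicates with 2i. Rpl38 had 37.5 and 19.7 CPM in KO10_S2iL, against 92.3, 96.0 and 96.0 CPM in KO10_SL. Rpl38 had a log2 fold change of -1.73 ± 0.31 (SE, edgeR adjusted p = 3.79e-04). Rps28 had 60.9 and 39.96 CPM in KO10_S2iL, against 154, 160.0 and 161 CPM in KO10_SL. For Rps28 the log2 fold change was -1.65 ± 0.26 (SE, edgeR adjusted p = 1.54e-04), and it also differed between wild-type sets (log2 fold change -1.88 for E14_ESC against TG2A_ESC). Ribosomal protein genes have many near-identical copies, which makes single values uncertain.

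Of 9 tested Xlr genes, a multicopy X-linked family, 7 rose with 2i in the knockout (median 2.57) and 6 in wild-type cells. Xlr3b had 48.6 and 51.5 CPM in KO10_S2iL, against 6.22, 5.52 and 7.84 CPM in KO10_SL. Xlr3b had a log2 fold change of 2.94 ± 0.67 (SE, edgeR adjusted p = 0.00257). Gab1, Abca1, Ly6a and Rarg were picked after their values were seen. Gab1, a docking protein downstream of receptor tyrosine kinases, had 178 and 184 CPM in KO10_S2iL, against 41.1, 44.6 and 44.0 CPM in KO10_SL. For Gab1 the log2 fold change was 2.07 ± 0.081 (SE, edgeR adjusted p = 2.09e-10), while wild-type cells had 288 and 287 CPM in TG2A_S2iL and 249 and 240.3 CPM in TG2A_ESC. The knockout level was thus below the wild-type level in both media and rose with 2i. Abca1, a cholesterol exporter, had 141 and 147 CPM in KO10_S2iL, against 28.0, 20.3 and 20.9 CPM in KO10_SL. Abca1 had a log2 fold change of 2.64 ± 0.43 (SE, edgeR adjusted p = 1.89e-04). Its difference from wild-type cells missed the threshold (2.52 ± 0.65 SE, edgeR adjusted p = 0.0574). Ly6a, which encodes the surface antigen SCA-1, had 232 and 240.0 CPM in KO10_S2iL, against 48.9, 28.0 and 25.9 CPM in KO10_SL. For Ly6a the log2 fold change was 2.78 ± 0.33 (SE, edgeR adjusted p = 1.20e-05). Rarg, a retinoic acid receptor, had 26.0 and 28.7 CPM in KO10_S2iL, against 154, 152 and 139.7 CPM in KO10_SL. Rarg had a log2 fold change of -2.44 ± 0.32 (SE, edgeR adjusted p = 2.74e-05).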
